A study of Mus musculus with 2 samples.

Results

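The genes described here are 10 readouts of the unfolded protein response and the integrated stress response in mouse kidney: Hspa5, Hsp90b1, Dnajb9, Herpud1, Xbp1, Atf4, Ddit3, Ppp1r15a, Trib3 and Asns. They were chosen by name, as the genes carrying these symbols, and make up 10 of the 20002 genes in the table. Bulk RNA-seq of whole kidney compared 1 control library with 1 library labelled CKO, from mice meant to lack Regnase-2 (Zc3h12b), an RNase of the Regnase family that degrades messenger RNAs, in proximal tubules. Whether a library came from 1 mouse or from a pool is not stated in the sources used here, and with 1 library per group no difference has a replicate check. After a constant was taken off each column, as described under the processing, the control library held 38851231 reads (median 284 per gene) and the library labelled CKO held 43588721 (median 513.5).

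Although the label names a proximal tubule-specific conditional knockout, the study's methods describe a knockdown. C57BL/6J mice received, through the tail vein at 11 weeks of age, an AAV9 vector with a short hairpin RNA against Regnase-2. AAV9 is described there as reaching mainly proximal tubules, so other kidney cells could also have been reached. The control mice received AAV9 with a control hairpin according to one passage and an empty AAV9 vector according to another. The kidneys were taken at 14 weeks according to the sequencing methods and at 16 weeks according to the vector methods. Both groups ate standard chow and had no further treatment.

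The endoplasmic reticulum (ER) folds secreted and membrane proteins, and when unfolded protein builds up there the sensors IRE1, PERK and ATF6 start the unfolded protein response. IRE1 splices Xbp1 mRNA, ATF6 is cut to release a transcription factor, and both raise genes for chaperones and for degradation of misfolded proteins, while PERK phosphorylates the translation factor eIF2. The kinases GCN2, PKR and HRI phosphorylate the same factor on amino acid shortage, viral RNA or heme and mitochondrial stress, which slows translation overall but raises translation of ATF4, the transcription factor of the integrated stress response. Proximal tubule cells, which carry a heavy load of transport and protein uptake, activate these pathways in several forms of kidney injury. Counts per gene do not show Xbp1 splicing, eIF2 phosphorylation or ATF4 translation.

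Zc3h12b, on chromosome X, was read to see whether the labels held. It had 47 reads in control kidney against 59 in the CKO-labelled library, a log2 ratio of -0.25 with an interval from -0.83 to 0.33 after scaling. At this depth no difference in Zc3h12b was detectable, so the target's own mRNA does not check the label. Ratios throughout are of the library labelled CKO over the control, after its reads were multiplied by 0.667, the median gene ratio, and after 1 read was added to both values on the log2 scale. Intervals are 95% exact Clopper-Pearson intervals, which cover counting error only. Folds are ratios of scaled reads without the added read.

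Of the 10 stress response genes, 1 exceeded the control by 2-fold or more in the library labelled CKO and 0 fell short of it by that much. Over the 17469 genes reaching 10 scaled reads in either library, the shares past the same bounds were 13.4% higher and 5.35% lower, so 1 of 10 lies near the background. The ratios depend on how many reads a gene has. Among the 5944 genes with a mean of at least 1000 scaled reads, 2.83% were at least 2-fold higher and 5.01% lower, with a median log2 ratio of -0.17. Among the 11525 genes with a lower mean, those shares were 18.8% and 5.52%, with a median of 0.17. All 10 stress response genes passed the read minimum. Their median log2 ratio was 0.14, beside 0.022 over all genes (0.56 beside 0.44 under equal library totals), and 6 of the 10 lay above the all-gene median. The 6 genes with a mean of at least 1000 scaled reads had a median of 0.0036 and 0 past 2-fold, and the 4 with fewer had a median of 0.46 and 1 past 2-fold, Asns. Their summed scaled reads came to 0.994 times the control sum.

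**Figure D1:**
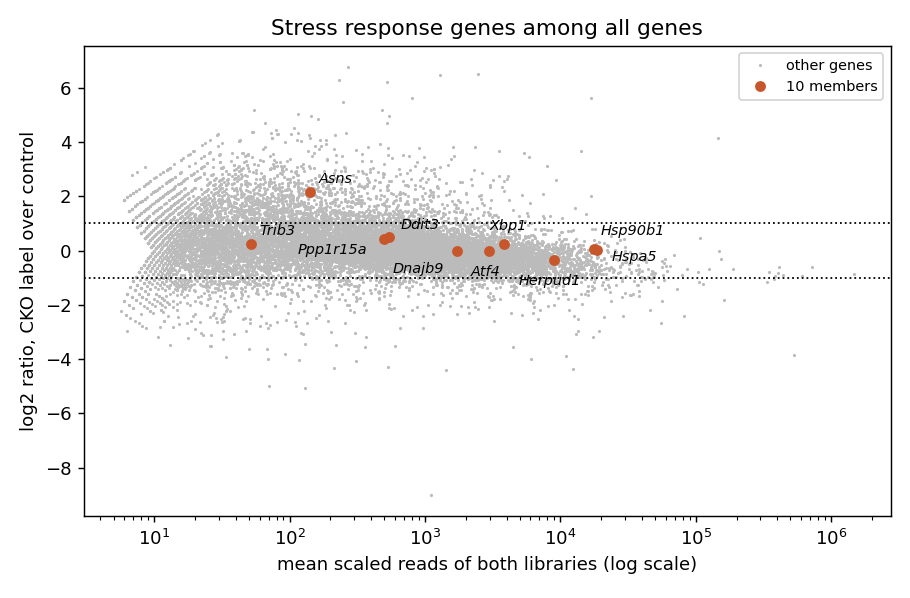
Log2 ratio of the library labelled CKO over the control (vertical axis) against the mean of scaled reads in both libraries (horizontal axis, log scale). Each grey point is 1 of the 17469 genes passing the read minimum, red points are the 10 stress response genes and dotted lines mark 2-fold; Asns at 2.16 is the 1 member outside the lines, in the range of read numbers where the grey points spread most widely.

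The transcription factors of the response differed from one another, with the CHOP gene further from the control than Atf4. Atf4, at chr15:80255184-80257545 on the plus strand of GRCm38.p6, encodes the factor whose translation follows eIF2 phosphorylation. It had 2980 reads in control kidney against 4433 before scaling in the CKO-labelled library, a log2 ratio of -0.012 with an interval from -0.079 to 0.055. No difference in Atf4 mRNA was detectable at this depth, and its sign turned with the scaling, to 0.41 under equal library totals.

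Ddit3, at chr10:127290793-127296291 on the plus strand, encodes CHOP, which acts downstream of ATF4 and is linked to cell death in prolonged stress. Its reads were 448 in control kidney against 962 in the CKO-labelled library, a fold of 1.43 and a log2 ratio of 0.52 (interval 0.35 to 0.68). Ddit3 was thus higher in the library labelled CKO beyond counting error, at rank 4147 of 17469 genes from the highest ratio, within 2-fold, and at 0.94 under equal library totals. Mars and Gm4189 overlap Ddit3 on the other strand. The library kit keeps strand, but the strand setting of the counting is not given in the sources used here.

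Xbp1, at chr11:5520641-5525993 on the plus strand, encodes the factor that IRE1 activates by splicing, and its transcription is itself raised by ATF6. It had 3534 and 6257 reads in the control and CKO-labelled libraries, a fold of 1.18 and a log2 ratio of 0.24 (interval 0.18 to 0.30). Xbp1 mRNA, spliced and unspliced together, was slightly higher in the library labelled CKO (0.66 under equal library totals), and 64.7% of genes had a ratio at or below its own.

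Feedback on the response runs through Ppp1r15a and Trib3. Ppp1r15a, at chr7:45522917-45526268 on the minus strand, encodes GADD34, which brings a phosphatase to eIF2 and so restores translation. Its 430 control reads stood beside 858 in the library labelled CKO, a fold of 1.33 and a log2 ratio of 0.41 (interval 0.24 to 0.58). Ppp1r15a was higher in the library labelled CKO beyond counting error (0.83 under equal library totals), and Tulp2 overlaps it on the other strand. Trib3, at chr2:152337425-152344060 on the minus strand, encodes a pseudokinase induced through ATF4 and CHOP that restrains ATF4 activity. With 47 reads in control kidney against 84 in the CKO-labelled library, its log2 ratio of 0.25 had an interval from -0.28 to 0.80. No difference in Trib3 was thus detectable at this depth under the median gene ratio. Its ratio was 0.66 under equal library totals, where the all-gene median was 0.44.

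Asns, which encodes asparagine synthetase and is a known target of ATF4 under amino acid shortage, stood apart from the other 9 genes. It lies at chr6:7675165-7693209 on the minus strand. Asns had 51 reads in control kidney against 347 in the CKO-labelled library, a fold of 4.54 (interval 3.37 to 6.21) and a log2 ratio of 2.16 (interval 1.75 to 2.64). It was higher in the library labelled CKO, at rank 607 of 17469, with 96.5% of genes at or below its ratio. The next gene in the order, Ddit3, lay 1.64 lower on the log2 scale, and their intervals did not overlap. The log2 ratio of Asns was 1.64 in the deposited values scaled by the median gene ratio and 1.98 with a pseudocount of 10, past 2-fold but below 4-fold in both.

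Chaperones of the ER lumen, the most direct readout of ATF6 and XBP1 activity, had nearly the same scaled reads in both libraries. Hspa5, at chr2:34772090-34776529 on the plus strand, encodes BiP, the HSP70 chaperone that also holds the sensors inactive. It had 18598 reads in control kidney against 28269 in the CKO-labelled library, a fold of 1.01 with an interval from 0.995 to 1.03. On the log2 scale this was 0.019 (interval -0.0076 to 0.046), so no difference in Hspa5 was detectable under this scaling. Its ratio was 0.094 with equal upper quartiles and 0.44 under equal library totals, both past its interval and close to the all-gene medians of 0.096 and 0.44 there, and -0.0026 with the median of the passing genes set to 0.

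Hsp90b1, at chr10:86690841-86705444 on the minus strand, encodes GRP94, the HSP90 chaperone of the ER. It had 17412 and 26866 reads in the control and CKO-labelled libraries, a log2 ratio of 0.041 (interval 0.013 to 0.068). Hsp90b1 was 1.03-fold higher in the library labelled CKO, a small difference that its high read number sets apart from counting error under this scaling, but this depends on the scale. Its ratio was 0.46 under equal library totals. It was 0.019 with the median of the passing genes set to 0 and 0.022 with the column minimum subtracted, both smaller than 0.041. Gm15344 and Gm25745 overlap Hsp90b1 on the same strand and 1810014B01Rik on the other. Dnajb9, at chr12:44205897-44210068 on the minus strand, encodes ERdj4, a BiP cochaperone that is a known XBP1 target and represses IRE1. Its reads were 1749 in control kidney against 2582 in the CKO-labelled library, and its log2 ratio of -0.023 (interval -0.11 to 0.065) gave no detectable difference and turned to 0.40 under equal library totals. Mir5627 overlaps it on the other strand.

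Herpud1 was the lowest of the 10 ratios. It lies at chr8:94386429-94395371 on the plus strand, with Gm15890 on the other strand, and encodes an ER membrane protein that organises the machinery of ER-associated degradation. Herpud1 had 10119 reads in control kidney against 11908 in the CKO-labelled library, a fold of 0.785 and a log2 ratio of -0.35 (interval -0.39 to -0.31). It was lower in the library labelled CKO beyond counting error under the median ratio, but its ratio was 0.069 under equal library totals, which placed the all-gene median at 0.44. Herpud1 thus lay below the all-gene median, with 23.8% of genes at or below it. Its place among the genes is not checked by the second scaling, which shifts all ratios nearly alike.

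**Figure D2:**
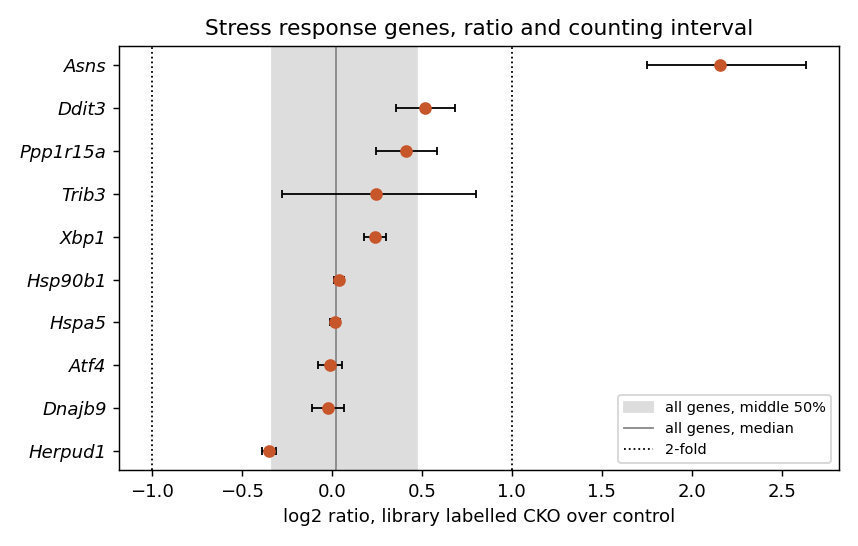
Log2 ratio of the library labelled CKO over the control (horizontal axis) for each of the 10 stress response genes (vertical axis), with 95% exact counting intervals as bars. The grey band spans the middle 50% of all genes, -0.33 to 0.48, the grey line is their median and dotted lines mark 2-fold; Asns lies far right of the band, Ddit3 at 0.52 and Herpud1 at -0.35 at its edges, and under equal library totals Herpud1, Dnajb9 and Atf4 move above 0.

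In the order of ratios from Herpud1 to Asns, most neighbours were not separated by counting error. Intervals of adjacent genes did not overlap between Herpud1 and Dnajb9 (0.33 apart on the log2 scale), between Hsp90b1 and Xbp1 (0.20 apart) and between Ddit3 and Asns. Dnajb9, Atf4, Hspa5 and Hsp90b1 each overlapped their neighbour in that order, as did Xbp1, Trib3, Ppp1r15a and Ddit3.

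Levels of different genes were compared as scaled reads per kilobase of the longest annotated transcript. On this scale the chaperone and degradation genes were the highest in the control library, with Hsp90b1 at 5404, Herpud1 at 5184 and Hspa5 at 5065. The factors Xbp1 and Atf4 followed at 1659.9 and 1476, and then Dnajb9 at 711, Ddit3 at 462 and Ppp1r15a at 153. Asns and Trib3 were the lowest in the control library, at 25.3 and 23.2 per kilobase. In the library labelled CKO the levels per kilobase were 5559 for Hsp90b1, 5132 for Hspa5 and 4067 for Herpud1, so Herpud1 moved from the 2nd to the 3rd place. Xbp1 stood at 1959, Atf4 at 1464, Dnajb9 at 699 and Ddit3 at 662 per kilobase there. Ppp1r15a was at 204, Asns at 115 and Trib3 at 27.6, in the same order as in the control library.

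**Figure D3:**
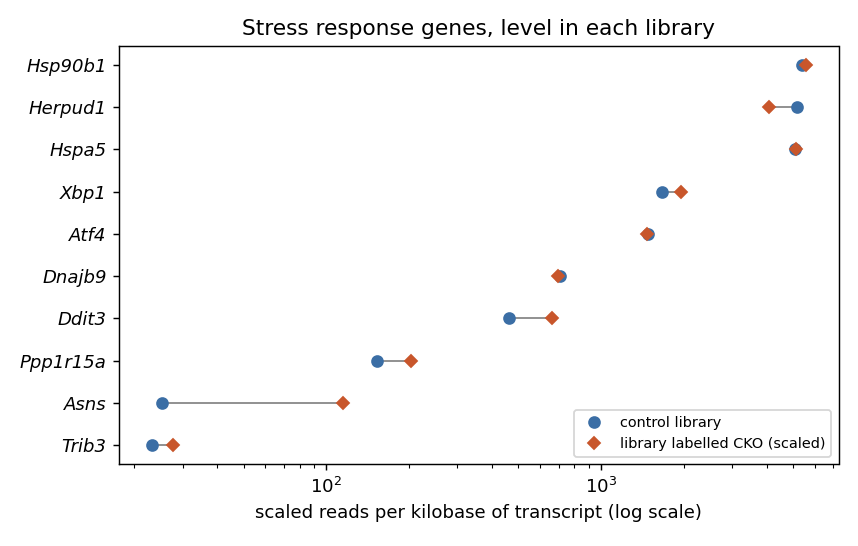
Scaled reads per kilobase of transcript (horizontal axis, log scale) for the 10 stress response genes (vertical axis) in the control library (blue circles) and the library labelled CKO (red diamonds). The pairs of points for Hsp90b1, Hspa5, Atf4 and Dnajb9 nearly coincide, while Asns runs from 25.3 to 115.

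Promoters of the chaperone and ATF4 branches carry different published response elements, and those of the genes named above were read to show which letters they hold. All 10 genes matched a RefSeq promoter (GRCm38.p6), a window of 300 bases from 250 before to 50 after the transcription start. The ER stress response element ERSE, which ATF6 and NF-Y bind, was searched as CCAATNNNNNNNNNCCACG, the related ERSE-II as ATTGGNCCACG, the UPRE bound by XBP1 as TGACGTGG and the C/EBP-ATF response element CARE, bound by ATF4, as TGATGNAA, each on both strands. ERSE was found in 39 of 32851 windows over all promoters (0.119%), ERSE-II in 12 (0.0365%), CARE in 1304 (3.97%) and UPRE in 222 (0.676%). Among the 10 genes, Hspa5 and Hsp90b1 held ERSE, Herpud1 held ERSE-II and CARE, Asns and Trib3 held CARE, and 0 held UPRE as spelled. A match is a description of the letters, not a binding site or a cause.

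The sequences below show the elements in the chaperone genes, whose ratios were near 0 under the median gene ratio, in Herpud1, the lowest ratio, and in Asns, the highest. Each is written 5′ to 3′ on the strand of its gene with 15 bases on either side, and capitals mark the element. They are at chr2:34772010-34772058 (plus strand, ERSE from -65 to -47 of the start), chr10:86705623-86705671 (minus strand, -212 to -194), chr10:86705518-86705566 (minus strand, -107 to -89), chr8:94386362-94386402 (plus strand, -52 to -42), chr8:94386302-94386339 (plus strand, -112 to -105) and chr6:7693210-7693247 (minus strand, -23 to -16), in the order printed. The lower Hsp90b1 element and the Herpud1 CARE match the searched letters on the opposite strand.
Hspa5 ERSE: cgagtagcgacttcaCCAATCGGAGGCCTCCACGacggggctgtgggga
Hsp90b1 upper ERSE: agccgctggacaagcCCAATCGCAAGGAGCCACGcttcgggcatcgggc
Hsp90b1 lower ERSE: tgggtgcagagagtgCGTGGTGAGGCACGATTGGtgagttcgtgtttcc
Herpud1 ERSE-II: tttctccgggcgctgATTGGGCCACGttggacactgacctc
Herpud1 CARE: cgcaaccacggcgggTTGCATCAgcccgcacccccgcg
Asns CARE: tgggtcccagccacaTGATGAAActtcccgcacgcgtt

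The wider pathway was described by 11 lists that leave out the 10 genes. Together their 191 genes passing the read minimum had a median log2 ratio of -0.14 beside 0.022 over all genes, with 21 (10.99%) past 2-fold on the higher side and 1 (0.524%) on the lower side, beside 13.4% and 5.35% over all genes. The lists hold more abundant genes than the table does, so the shares were also read by level. Of the 134 genes with a mean of at least 1000 scaled reads, 2 (1.49%) were past 2-fold on the higher side, and 1 (0.746%) on the lower side, beside 2.83% and 5.01% over all genes in that range, with a median of -0.23 beside -0.17. Of the 57 with a lower mean, 19 (33.3%) were past it on the higher side and 0 on the lower, beside 18.8% and 5.52%, with a median of 0.46 beside 0.17. These differences were not tested. Within each list the most-read gene and the genes of highest and lowest ratio are named. Other genes were named after their values were seen. Scaling to equal library totals shifts the whole distribution, to an all-gene median of 0.44, so each list median is read against the all-gene median rather than against 0.

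Genes of the sensors and of eIF2 control had a median below that of all genes, and the 4 eIF2 kinases lay on both sides of it. Of 20 sensor and eIF2 control genes, 19 passed the read minimum and Ern2 was not analysed here. Their median was -0.17, and under equal library totals it was 0.24, where the all-gene median was 0.44. The 10 with a mean of at least 1000 scaled reads had a median of -0.23, beside -0.17 over all genes in that range. Eif2ak2, which encodes the double-stranded RNA sensor PKR and is induced by interferon, was the 1 gene past 2-fold, with 620 control reads against 1961 in the CKO-labelled library (log2 ratio 1.08, interval 0.95 to 1.21, which reaches below 2-fold). It was among the 9 with a lower mean, a range where 18.8% of all genes were at least 2-fold higher. Rtcb, the ligase that joins spliced Xbp1 mRNA, had the most reads, 4581 and 5660, and a log2 ratio of -0.28. Dele1, which relays mitochondrial stress to the kinase HRI, was the lowest at -0.49. Among sensors chosen after their values were seen, Ern1 (IRE1) had 575 and 844 reads (log2 ratio -0.031) and Atf6 had 2401 and 3355 (-0.10). Eif2ak3, which encodes PERK, had 1371 and 2569 reads, at a log2 ratio of 0.32 (interval 0.23 to 0.42), the highest ratio of the 3 ER sensors. The other kinases, Eif2ak4 (GCN2) with 529 and 882 reads and Eif2ak1 (HRI) with 2239 and 2400, were at 0.15 (interval -0.0046 to 0.31) and -0.48 (interval -0.57 to -0.40). The interval of Eif2ak4 spans the all-gene median of 0.022, and its ratio is close to the 0.17 of all genes with a mean below 1000 scaled reads.

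Other ER chaperones and foldases help new proteins fold beside Hspa5 and Hsp90b1. Of 24 genes, 0 were past 2-fold in either direction, where 92.2% of all genes with a mean of at least 1000 scaled reads also lay within 2-fold, the median was -0.074 (0.35 under equal library totals), and summed scaled reads were 0.871 times the control. The 19 with a mean of at least 1000 scaled reads had a median of -0.15, close to the -0.17 of all genes in that range. Calr, the lectin chaperone calreticulin, had the most reads, 23053 in control kidney against 28646 in the CKO-labelled library (log2 ratio -0.27). Sdf2l1, a BiP cofactor strongly induced by ER stress, was the highest, with 261 and 704 reads and a log2 ratio of 0.84 (interval 0.64 to 1.06). Sil1, the nucleotide exchange factor of BiP, was the lowest at -0.73, with 1593 and 1438 reads.

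Genes of ER-associated degradation, the pathway of Herpud1, had a lower median than the chaperones, with overlapping ranges. Their median over 23 of 24 genes (Hm13 was not analysed here) was -0.31, beside -0.17 for all genes with a mean of at least 1000 scaled reads, the range that holds 21 of the 23. It was 0.11 under equal library totals, where the all-gene median was 0.44. Vcp, the ATPase that pulls proteins from the membrane, had the most reads, 16158 and 17141 (log2 ratio -0.50), and Edem1, a mannosidase-like factor that marks glycoproteins for disposal, was the lowest at -0.71. Derl3, a channel component, was the 1 gene past 2-fold at 1.02, but on 14 and 44 reads, with an interval from 0.17 to 2.05, so its place beyond 2-fold is not fixed at this depth. It was among the 2 with a mean below 1000 scaled reads, a range where 18.8% of all genes were at least 2-fold higher.

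Translocation, glycosylation and traffic genes, which carry new proteins into and out of the ER, had a median of -0.21 over 28 genes, and 0.21 under equal library totals. The 25 with a mean of at least 1000 scaled reads were at -0.23, beside -0.17. Kdelr3, a receptor that returns ER chaperones from the Golgi, was the 1 gene past 2-fold, with 79 reads in control kidney against 314 in the CKO-labelled library (log2 ratio 1.39, interval 1.05 to 1.78). It was among the 3 with a lower mean, a range where 18.8% of all genes were at least 2-fold higher. Sec62, a translocon subunit, had the most reads, 12133 and 12942 (log2 ratio -0.49). Sec11a, a subunit of the signal peptidase, was the lowest at -0.93.

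**Figure D4:**
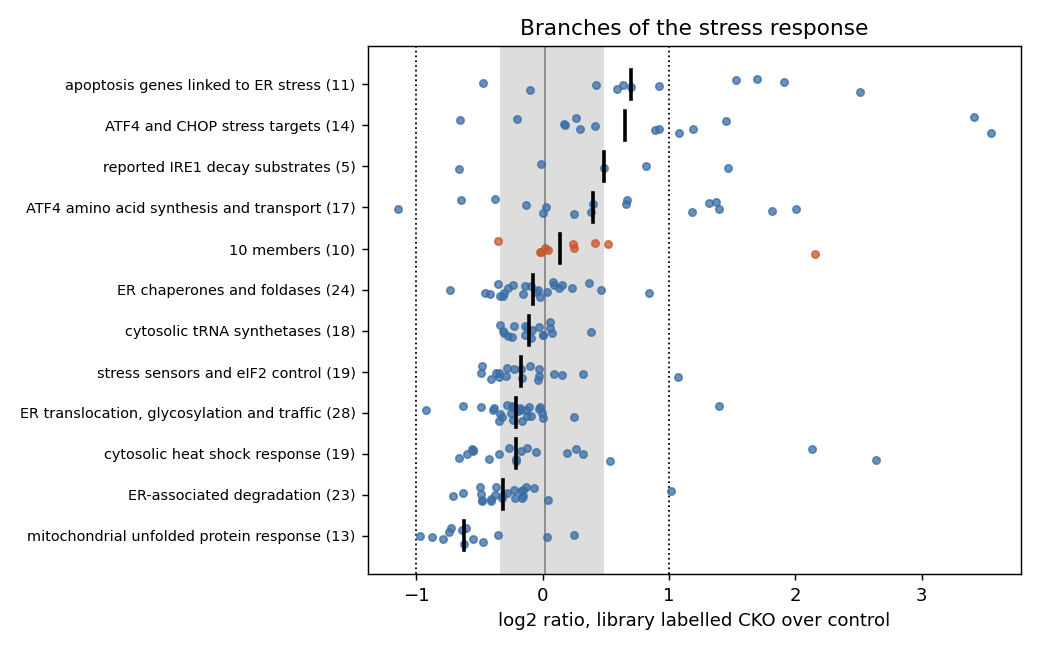
Log2 ratio of the library labelled CKO over the control (horizontal axis) for genes of the 11 pathway lists and the 10 stress response genes (vertical axis, number of genes in brackets). Each point is a gene, black bars are list medians, the grey band and line are the middle 50% and median of all genes and dotted lines mark 2-fold; medians run from -0.63 for the mitochondrial response to 0.70 for apoptosis genes, and under equal library totals those below 0 move above it, other than the mitochondrial one at -0.21.

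Stress targets of ATF4 and CHOP, the branch of Trib3 and Ddit3, had a higher median than the ER lists. Of 15 genes, 14 passed the read minimum (Fgf21 was not analysed here), 5 were past 2-fold on the higher side and 0 on the lower, and the median was 0.65 (1.07 under equal library totals) beside 0.022 (0.44) over all genes. The 11 with a mean below 1000 scaled reads had a median of 0.92, beside 0.17 over all genes in that range, and held the 5 past 2-fold, beside 18.8%. The 3 with a higher mean had a median of -0.20, beside -0.17 over all genes in their range. Summed scaled reads of the list were 0.997 times the control. With a minimum of 50 scaled reads the list median was 0.42, with 4 past 2-fold, and in the deposited values scaled by the median gene ratio 2 were past it. Atf3, a stress-induced repressor of transcription, was the highest, with 53 reads in control kidney against 946 in the CKO-labelled library, a fold of 11.9 (interval 9.02 to 16.004). Gdf15, a secreted stress hormone, had 97 and 1570 reads, a fold of 10.8 (interval 8.79 to 13.4). Both genes are also induced in other kinds of stress and injury, so they do not read ATF4 alone. Chac1, which degrades glutathione, had 15 and 64 reads, at a log2 ratio of 1.45 (interval 0.68 to 2.43). Stc2, a secreted glycoprotein, and Nupr1, a small chromatin-associated stress protein, were at 1.19 (interval 0.79 to 1.64) and 1.08 (interval 0.88 to 1.30). The intervals of Chac1, Stc2 and Nupr1 reach below 2-fold, so their place beyond it is not fixed at this depth. Cth, the enzyme that makes cysteine from cystathionine, had the most reads, 7543 and 7201, and the lowest log2 ratio, -0.65.

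Amino acid synthesis and transport genes, the branch of Asns, were spread widely in both directions. Of 19 genes, 18 were in the table (Pycr1 was not analysed here) and 17 passed the read minimum, with Slc7a3 below it at 7 and 14 reads. Of these 17, 6 were past 2-fold on the higher side and 1 on the lower, and the median was 0.40 (0.81 under equal library totals). The 13 with a mean below 1000 scaled reads held 5 of the 6 and had a median of 0.66, beside 18.8% higher and a median of 0.17 over all genes in that range. The 4 with a higher mean held 1 of the 6 and had a median of -0.051, beside 2.83% and -0.17 over all genes in their range. Aldh18a1, the first enzyme of proline synthesis from glutamate, was the highest, with 53 reads in control kidney against 323 in the CKO-labelled library, a log2 ratio of 2.002 (interval 1.60 to 2.47). Shmt2, which makes glycine and 1-carbon units in mitochondria, was the lowest at -1.15, with 7934 and 5378 reads. Slc3a2, the heavy chain shared by several amino acid transporters, had the most reads, 5376 and 8220, and a log2 ratio of 0.028. Its light chain partner Slc7a5 had 53 and 283 reads, at a log2 ratio of 1.81.

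The other transporters of that list lay on both sides of the control. The arginine and lysine transporter Slc7a1 had 254 reads in control kidney against 1004 in the CKO-labelled library (log2 ratio 1.39), and the neutral amino acid transporter Slc38a2 had 1926 and 7211 (1.32). In contrast, the neutral amino acid transporter Slc1a4 had 947 and 906 reads (log2 ratio -0.65, interval -0.78 to -0.52) and the glycine transporter Slc6a9 had 689 and 794 (-0.38, interval -0.53 to -0.23), both lower under the median gene ratio. The mitochondrial folate enzymes Aldh1l2 and Mthfd2 were at 1.37 and 1.18, the interval of Mthfd2 reaching down to 0.85. The serine synthesis enzymes showed smaller ratios, with Phgdh at 0.40 and Psat1 at 0.25. The 6 genes at least 2-fold higher were thus Slc7a5, Slc7a1, Slc38a2, Aldh1l2, Mthfd2 and Aldh18a1.

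**Figure D5:**
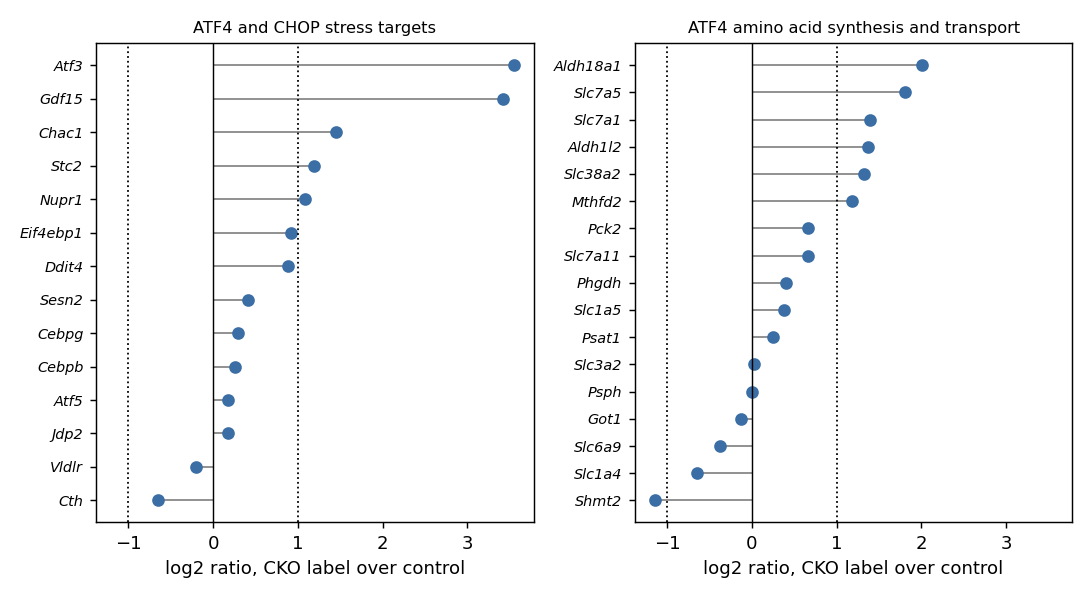
Log2 ratio of the library labelled CKO over the control (horizontal axis) for each gene (vertical axis) of the ATF4 and CHOP stress targets on the left and of the amino acid synthesis and transport genes on the right. Dotted lines mark 2-fold; Atf3 and Gdf15 lie at 3.55 and 3.42 on the left, and the right panel runs from -1.15 for Shmt2 to 2.002 for Aldh18a1.

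Cytosolic tRNA synthetases, many of which ATF4 also induces, stayed close to the background. All 18 were within 2-fold, with a median of -0.11, and 0.31 under equal library totals. The 17 with a mean of at least 1000 scaled reads were at -0.12, beside -0.17 over all genes in that range, where 92.2% lay within 2-fold. Sars, for serine, had the most reads, 4765 and 6029 (log2 ratio -0.25). Aars, for alanine, was the lowest at -0.34 and Vars, for valine, the highest at 0.38. The ratio of Asns lay above those of all 18 synthetases, but Asns is in the range of lower means. There 18.8% of all genes were at least 2-fold higher, beside 2.83% in the range of the 17 synthetases.

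Apoptosis genes linked to ER stress, a list that pools genes for and against cell death, had a median of 0.70 over 11 of 12 genes (Hrk was not analysed here). Of these, 4 were at least 2-fold higher and 0 lower. Under equal library totals the median was 1.12 and 8 were at least 2-fold higher. All 4 were among the 7 with a mean below 1000 scaled reads, which had a median of 1.53, beside 18.8% higher and a median of 0.17 over all genes in that range. The 4 genes with a higher mean had a median of 0.16, beside -0.17 over all genes in their range. Casp12, an ER-associated caspase of mouse, was the highest, with 53 reads in control kidney against 460 in the CKO-labelled library, a fold of 5.79 (interval 4.35 to 7.84). Pmaip1, which encodes the BH3-only protein NOXA, had 405 and 2288 reads (log2 ratio 1.91). Bbc3, which encodes PUMA, had 51 and 252 (1.70) and the death receptor gene Tnfrsf10b had 69 and 302 (1.53). These 3 are also targets of p53. Itpr1, the ER calcium channel, had the most reads, 14209 and 15342, and the lowest log2 ratio, -0.47.

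Transcripts reported to be cut by IRE1, the decay branch of that sensor, did not lie on one side. Of 6 genes, 5 passed the read minimum (Scara3 was not analysed here) and their median was 0.48 (0.90 under equal library totals). Of these, 1 was at least 2-fold higher, beside 13.4% over all genes. It was among the 4 with a mean of at least 1000 scaled reads, where 2.83% of all genes were. Those 4 had a median of 0.24, beside -0.17 over all genes in that range. Bloc1s1, the most widely used marker of this decay, had 3415 reads in control kidney against 3229 in the CKO-labelled library, a log2 ratio of -0.67 (interval -0.74 to -0.60). It was both the most read and the lowest of the list. Col6a1, a collagen chain made by fibroblasts, was the highest, at 565 and 2345 reads and a log2 ratio of 1.47.

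Protein quality control outside the ER was read beside it. Cytosolic heat shock genes, 19 in number, had a median of -0.21 (0.21 under equal library totals), with 2 at least 2-fold higher and 0 lower. The 15 with a mean of at least 1000 scaled reads were at -0.27, beside -0.17, with 0 past 2-fold, where 92.2% of all genes lay within it. The 4 with a lower mean were at 1.16 and held both, beside 18.8% over all genes in that range. Hspb1 and Hspb8, both small heat shock proteins, were those 2. Hspb1, the highest, had 216 reads in control kidney against 2021 in the CKO-labelled library, a fold of 6.24 (interval 5.42 to 7.21), and Hspb8 had 138 and 910. Hspa8, the constitutive HSP70, had the most reads, 76607 and 78174 (log2 ratio -0.56), and Hsph1 was the lowest at -0.66. Hspa1a and Hspa1b, in the same list, are near-identical copies, so counts for either are uncertain.

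Mitochondrial unfolded protein response genes had the lowest median of the 11 lists, -0.63 over 13 genes, with 0 past 2-fold. The 12 with a mean of at least 1000 scaled reads were also at -0.63, beside -0.17 over all genes in that range, where 92.2% lay within 2-fold. Under equal library totals the list median was -0.21, beside 0.44 over all genes. Hspd1, the mitochondrial chaperonin HSP60, was the lowest, with 23365 reads in control kidney against 17862 in the CKO-labelled library, a log2 ratio of -0.97 (interval -1.001 to -0.94). Hspa9, the mitochondrial HSP70, had the most reads, 25205 and 27259 (log2 ratio -0.47), and the protease gene Htra2 was the highest at 0.24.

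Cell type markers also differed between the libraries. In bulk tissue, fewer cells of a type and less RNA per cell cannot be told apart. Proximal tubule markers, which mark both libraries as kidney, had 534724 reads in control kidney against 439367 in the CKO-labelled library, a summed fold of 0.548. Of the 10 markers, 3 were at least 2-fold lower and 0 higher, with a median of -0.87, which was -0.45 under equal library totals and -0.28 in the deposited values without scaling. All 10 had a mean of at least 1000 scaled reads. Over all genes in that range, 5.01% were lower and 2.83% higher, with a median of -0.17. The phosphate transporter Slc34a1 had the most reads, 147064 and 98124 (log2 ratio -1.17), Slc22a6 was the lowest at -1.62 and Slc5a12 the highest at 0.41. Mitochondrial response genes and proximal tubule markers thus both had medians below that of all genes, and the part of the markers in that result was not tested.

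Markers of infiltrating and stromal cells were higher in the library labelled CKO. The share of all genes at least 2-fold higher, beside which their counts are read, was 13.4%. It was 2.83% for genes with a mean of at least 1000 scaled reads and 18.8% for those with a lower mean. Of 10 macrophage markers, 9 were at least 2-fold higher, with a median of 2.63, and their summed reads were 4063 in control kidney against 27809 in the CKO-labelled library, a fold of 4.56. Lyz2 had the most reads, 518 and 9836, and the highest log2 ratio, 3.66, and Csf1r was the lowest at 0.51. All 4 fibroblast markers were at least 2-fold higher, with summed reads of 3866 and 19201 and a fold of 3.31. Col1a2 had the most reads, 1319 and 7272, Col1a1 was the highest at 2.65 and Pdgfra the lowest at 1.04 (interval 0.94 to 1.15, which reaches below 2-fold). The part of these cells in the ratios of Asns, Ddit3, Ppp1r15a and the ATF4, apoptosis and IRE1 decay lists was not tested.

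Lymphocyte markers had few reads. Of 6 T cell markers, 5 passed the read minimum (Cd3d was not analysed here), all with a mean below 1000 scaled reads. Of these, 4 were at least 2-fold higher, beside 18.8% of all genes in that range. Their median over the 5 was 1.72, on summed reads of 143 and 376. That median was 0.69 in the deposited values scaled by the median gene ratio and 1.31 with a pseudocount of 10. The intervals of Cd3e (6 and 33 reads, 0.60 to 3.42) and Cd4 (17 and 86 reads, 0.99 to 2.60) reach below 2-fold. Trac had the most reads, 99 and 109, and the lowest log2 ratio, -0.44, and Cd3g was the highest at 2.22. Plasma cells make ER proteins in bulk, so their markers bear on Xbp1 and the chaperones. Of 11 B and plasma cell markers, 6 passed the read minimum (the other 5 were not analysed here), with summed reads of 326 in control kidney against 819 in the CKO-labelled library and a median of 0.55, which was 0.95 under equal library totals and 0.22 in the deposited values scaled by the median gene ratio. Ighm had the most reads, 110 and 530, and the highest log2 ratio, 1.67, and Prdm1 was the lowest at -0.83. All 6 had a mean below 1000 scaled reads, and Ighm was the 1 marker at least 2-fold higher, beside 18.8% of all genes in that range. The part of lymphocytes in the Xbp1 ratio was not tested.

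Markers of other resident cells stayed within 2-fold under the median gene ratio, as did 81.3% of all genes. The 5 thick limb and distal tubule markers had a median of -0.14 (0.28 under equal library totals) and summed reads of 174647 and 284770, with Umod the most read and the highest at 0.47 and Egf the lowest at -0.81. The 4 collecting duct markers had a median of 0.41 (0.83 under equal library totals) and summed reads of 10715 and 22072, with Aqp2 the most read and the highest at 0.79 and Aqp3 the lowest at -0.15. The 4 podocyte markers had a median of -0.15 (0.26 under equal library totals) and summed reads of 7455 and 10267, with Podxl the most read and the highest at 0.082. The 4 endothelial markers had a median of -0.11 (0.31 under equal library totals) and summed reads of 7231 and 9386, with Kdr the most read and the lowest at -0.67 and Emcn the highest at 0.14. The part of these cells in the stress response values was not tested.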

How the data were processed

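Whole kidney RNA from 1 control library and 1 library labelled CKO had been sequenced from a strand-keeping mRNA kit. Per the submitters' processing notes and the study's methods, the authors used STAR 2.7.3a for alignment to mm10, HTSeq for counting and DESeq2 for normalization. What they deposited is treated here as a score in whole numbers, since the authors call them normalized counts but their lowest values are 35 and 51. Cufflinks 2.2.1 FPKM values were not used here.

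Each column's minimum minus 1 (34 and 50) was subtracted, which assumes that a constant had been added and that the lowest gene had 1 read. All reads and intervals rest on that inference. Deposited totals were 39531299 and 44588821. Reads of the library labelled CKO were multiplied by the median gene ratio, 0.667. Log2 ratios used a pseudocount of 1 and genes reaching 10 scaled reads in either library, and calls used 2-fold. No test between groups was possible. Python 3.11.15, numpy 2.4.6, pandas 2.3.3, scipy 1.17.1 and matplotlib 3.10.9 were used, and the steps were checked on simulated data. Transcript lengths came from GENCODE M21 and promoters and coordinates from RefSeq GRCm38.p6.

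Named genes were the 10 stress response genes, Zc3h12b, and the most-read, highest and lowest gene of each list, besides those said to be named later; 1 gene that this rule would name is not reported here. The 10 genes and the lists (11 of pathways, 9 of cell markers) were chosen with earlier results of these data known, and 5 further lists were added after the data were seen. Alternatives were other pseudocounts, read minimums, fold bounds, scalings and the values as deposited.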

Additional observations from a re-analysis of the deposited data

How the results depend on the processing

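Asns was at least 2-fold higher in every setting run, with log2 ratios of 1.64 in the deposited values scaled by the median gene ratio and 1.98 with a pseudocount of 10. It also passed the 4-fold bound under the main settings, though its interval reaches below it. The other 9 members stayed within 2-fold, except Ddit3 at 1.07 in the deposited values without scaling, where 2 members were past 2-fold. Of 100 values of single members, 78 moved by no more than their counting interval, 22 moved further and 10 changed sign. Of 250 list medians, 220 stayed within an interval taken from the order of the list's own genes, which is wide for short lists, 30 moved past it and 27 changed sign. The members' median stood 0.12 above the all-gene median, and from 0.078 to 0.14 above it over the settings. No paired analysis was possible because the labels give 1 library for each group.

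Scaling shifts all ratios together. The deposited values without scaling also keep the constants of both columns, so that setting changes both choices at once. The deposited values scaled by the median gene ratio keep the constants too and gave an all-gene median of 0.024. The all-gene median was 0.022 under the median gene ratio, 0.096 with equal upper quartiles, 0.44 with equal library totals and 0.59 in the deposited values without scaling. Among genes past 2-fold, 71.4% were higher under the median gene ratio, 89.9% with equal library totals (3870 higher, 437 lower) and 96.5% in the unscaled deposited values (3574 and 131). With equal totals the median was 0.56 for the members, 0.24 for sensors, 0.35 for chaperones, 0.11 for degradation, 0.21 for translocation, 0.31 for tRNA synthetases and -0.21 for the mitochondrial response, and genes at least 2-fold higher were 1 for chaperones, 8 for apoptosis and 2 for IRE1 decay. In the unscaled deposited values the median was 0.67 for the members, 0.41 for sensors, 0.51 for chaperones, 0.28 for degradation, 0.38 for translocation, 0.48 for tRNA synthetases, 0.38 for heat shock and -0.035 for the mitochondrial response, and genes at least 2-fold higher were 1 for chaperones, 0 for degradation, 8 for apoptosis and 3 for IRE1 decay. With equal upper quartiles the chaperone median was 0.00085.

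Deposited values scaled by the median gene ratio gave 1196 genes higher and 463 lower, 0 for degradation and 2 for ATF4 and CHOP targets, and medians of 0.69 for T cell and 0.22 for B and plasma cell markers, because the constant kept in both columns pulls low genes together. Degradation also had 0 genes higher with a pseudocount of 10 and with the median of the passing genes set to 0, since Derl3 lies at the bound, and with at least 50 reads, which Derl3 does not reach. At least 50 reads gave 617 genes lower, with fewer genes read, and a median of 0.42 for ATF4 and CHOP targets. Fold bounds acted by construction. At 1.5-fold, 3801 genes were higher and 2423 lower (61.1% higher), with 1 for chaperones, 8 for apoptosis and 2 for IRE1 decay. At 4-fold, 749 were higher and 166 lower (81.9% higher), with 0 for sensors, degradation, translocation and IRE1 decay, 1 for amino acid genes and apoptosis and 2 for ATF4 and CHOP targets. Subtracting the column minimum itself and reading genes by mean level were added after the data were seen.

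Depth limits Trib3, Zc3h12b, Derl3, Chac1 and the lymphocyte markers, whose intervals are wide. No interval covers differences between mice, library preparation or the inference of the subtracted constants.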

Other observations

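Other systems that handle ER proteins were read with 5 lists added after the data were seen, without a test. Collagen-modifying ER proteins, which prepare collagen chains for folding, had a median log2 ratio of 0.057 (0.48 under equal library totals) over 13 of 14 genes (P4ha3 was not analysed here), beside 0.022 over all genes. Fkbp10, a prolyl isomerase for collagen, was the 1 gene at least 2-fold higher, with 149 reads in control kidney against 507 in the CKO-labelled library (log2 ratio 1.18, interval 0.92 to 1.46). It was among the 5 with a mean below 1000 scaled reads, a range where 18.8% of all genes were at least 2-fold higher. P3h2 had the most reads, 4564 and 7047, and Crtap was the lowest at -0.65. The collagen chaperone Serpinh1, named after its value was seen, had 3507 and 6398 reads, with a log2 ratio of 0.28, while the fibroblast collagen genes Col1a1 and Col1a2 were at 2.65 and 1.88.

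The ER-anchored CREB3 transcription factors, relatives of ATF6, had a median of -0.22 over 5 genes (0.20 under equal library totals), from -0.75 for Creb3l4 to 0.15 for Creb3, with Creb3l2 the most read. The cytosolic chaperonin CCT had a median of -0.19 over 8 genes (0.23 under equal library totals), from -0.36 for Cct6a, the most read, to 0.078 for Cct4. Genes of the proteasome 20S core, which degrades proteins extracted from the ER, kept within a narrow range. All 14 lay between -0.47 for Psmb5 and -0.075 for Psma5, with a median of -0.27 (0.15 under equal library totals) and Psma4 the most read. ER-phagy receptors and autophagy adaptors had a median of -0.38 over 9 genes (0.037 under equal library totals), with Sqstm1 the most read and lowest, at 21618 and 21528 reads and -0.59, and Optn the highest at 0.11. None of the genes in these 4 lists was past 2-fold, where 81.3% of all genes lay within it. All 8 CCT and all 14 proteasome genes had a mean of at least 1000 scaled reads. In that range 92.2% of all genes lay within 2-fold, with a median of -0.17.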
